A study of Chlamydomonas reinhardtii with 12 samples.

Results

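The 10 genes described here belong to the green alga Chlamydomonas reinhardtii. They encode enzymes that turn protoporphyrin IX into chlorophyll, together with the protein that stimulates the first of these enzymes. They were taken by identifier from a table of 17744 gene identifiers, and all 10 were found in it. The study set 6 RNA samples of phytoene desaturase knockouts (PDSKO) against 6 samples of their parental line. The knockouts came from Cas9 ribonucleoprotein, target the enzyme that first desaturates phytoene on the way to coloured carotenoids, and belong to 3 transformant lines: E10 gave 4 libraries, A2 gave 1 and D2 gave 1. PDSKO cells were grown in TAP, an acetate medium, with no arginine added, and flow sorting removed cells that had taken up the plasmid alone and possible revertants. Parental cells (WT, line CC-3403) were grown in TAP with 10 µg/mL arginine and no sorting is given for them. Both were kept in darkness at 25 °C for 4 weeks. Genotype, arginine, sorting and the plasmid therefore go together and cannot be told apart. The 6 WT samples are called independent in the labels, and nothing says whether the 4 E10 libraries came from separate cultures, so a p-value here reflects library-to-library spread, which may be technical. In RNA from a whole culture, less of a transcript per cell and fewer cells that hold it cannot be told apart.

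Chlorophyll and haem share their early steps up to protoporphyrin IX. Magnesium chelatase commits the porphyrin to chlorophyll: its large subunit CHLH1 (Cre07.g325500) binds the porphyrin, and CHLD (Cre05.g242000) and CHLI1 (Cre06.g306300) form the ATP-driven motor that inserts the metal. GUN4 (Cre05.g246800) binds porphyrins and stimulates the chelatase, and in plants it is also known for its part in signals from the plastid to the nucleus. CHLM (Cre12.g498550) then methylates the magnesium porphyrin. CTH1 (Cre12.g510050) and CRD1 (Cre07.g346050) are alternative forms of the diiron subunit of the aerobic cyclase that closes the fifth ring. In this alga CTH1 is known as the form of cells with ample copper and oxygen, and CRD1 as the form induced by copper or oxygen shortage. POR1 (Cre01.g015350) reduces protochlorophyllide and needs light. Chlamydomonas also has a light-independent reductase encoded in the plastid and can green in darkness. CHLG (Cre06.g294750) attaches the phytyl tail, and CAO1 (Cre01.g043350) oxidises chlorophyllide a on the way to chlorophyll b. The symbols were paired with the identifiers from general knowledge, since the table holds identifiers only, and the pairing could not be checked here.

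Library sizes decided what could be measured. The PDSKO libraries held between 6279 and 475103 counts, and the WT libraries between 1393032 and 35992976. A single count stood for between 2.10 CPM (counts per 1000000 counts, in A2) and 159 CPM (in E10 library 2) among PDSKO libraries, and for 0.718 CPM or less in WT. In A2 the identifier Cre07.g323800 took 43.3% of all counts, against 2.15 to 5.33% in WT 4 to 6. The targeted gene Cre12.g509650 (PDS1) had 2 counts each in E10 libraries 2 and 4 and 0 in the other PDSKO libraries, against 58 to 3394 counts in the 6 WT libraries. A 3′ tag need not lie in the edited stretch, so its counts do not check the edit. Sample titles fall into a first set (E10 and WT 1 to 3, with another strain number in the WT titles) and a second set (A2, D2 and WT 4 to 6). What the sets stand for is not given, and each knockout line was also compared within its own set.

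Within the first set, the libraries differed in the genes of the light-harvesting antenna, the proteins that bind most of the chlorophyll. The 21 antenna genes summed to 81674 CPM in E10 library 1 and to 2070 to 6491 CPM in E10 libraries 2 to 4. In WT 1 they summed to 135650 CPM, and in WT 2 and WT 3 to 4274 and 3910 CPM. FDX5, a ferredoxin, and CYC6, the cytochrome that replaces plastocyanin when copper is short, had 7 and 2 counts in E10 library 1. They had 7025 and 1025 counts in WT 1. Both genes were at 0 in WT 2 and WT 3. They were also at 0 in E10 libraries 2 to 4, where 3 counts would be 166 to 478 CPM, so those zeros say little. FDX5 and CYC6 belong to a list of 9 copper and oxygen responsive genes. Of that list, HYDA1, HYDA2 and CRR1 were lower in WT 1 than in WT 2 and WT 3, and the others were higher. E10 library 1 and WT 1 thus stood apart from the other libraries of their set in the antenna sum. WT 1 also stood apart from WT 2 and WT 3 in FDX5 and CYC6. Results of E10 and of all PDSKO libraries are therefore also given without E10 library 1, and those of WT 1 to 3 without WT 1 where that moves them.

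**Figure D1:**
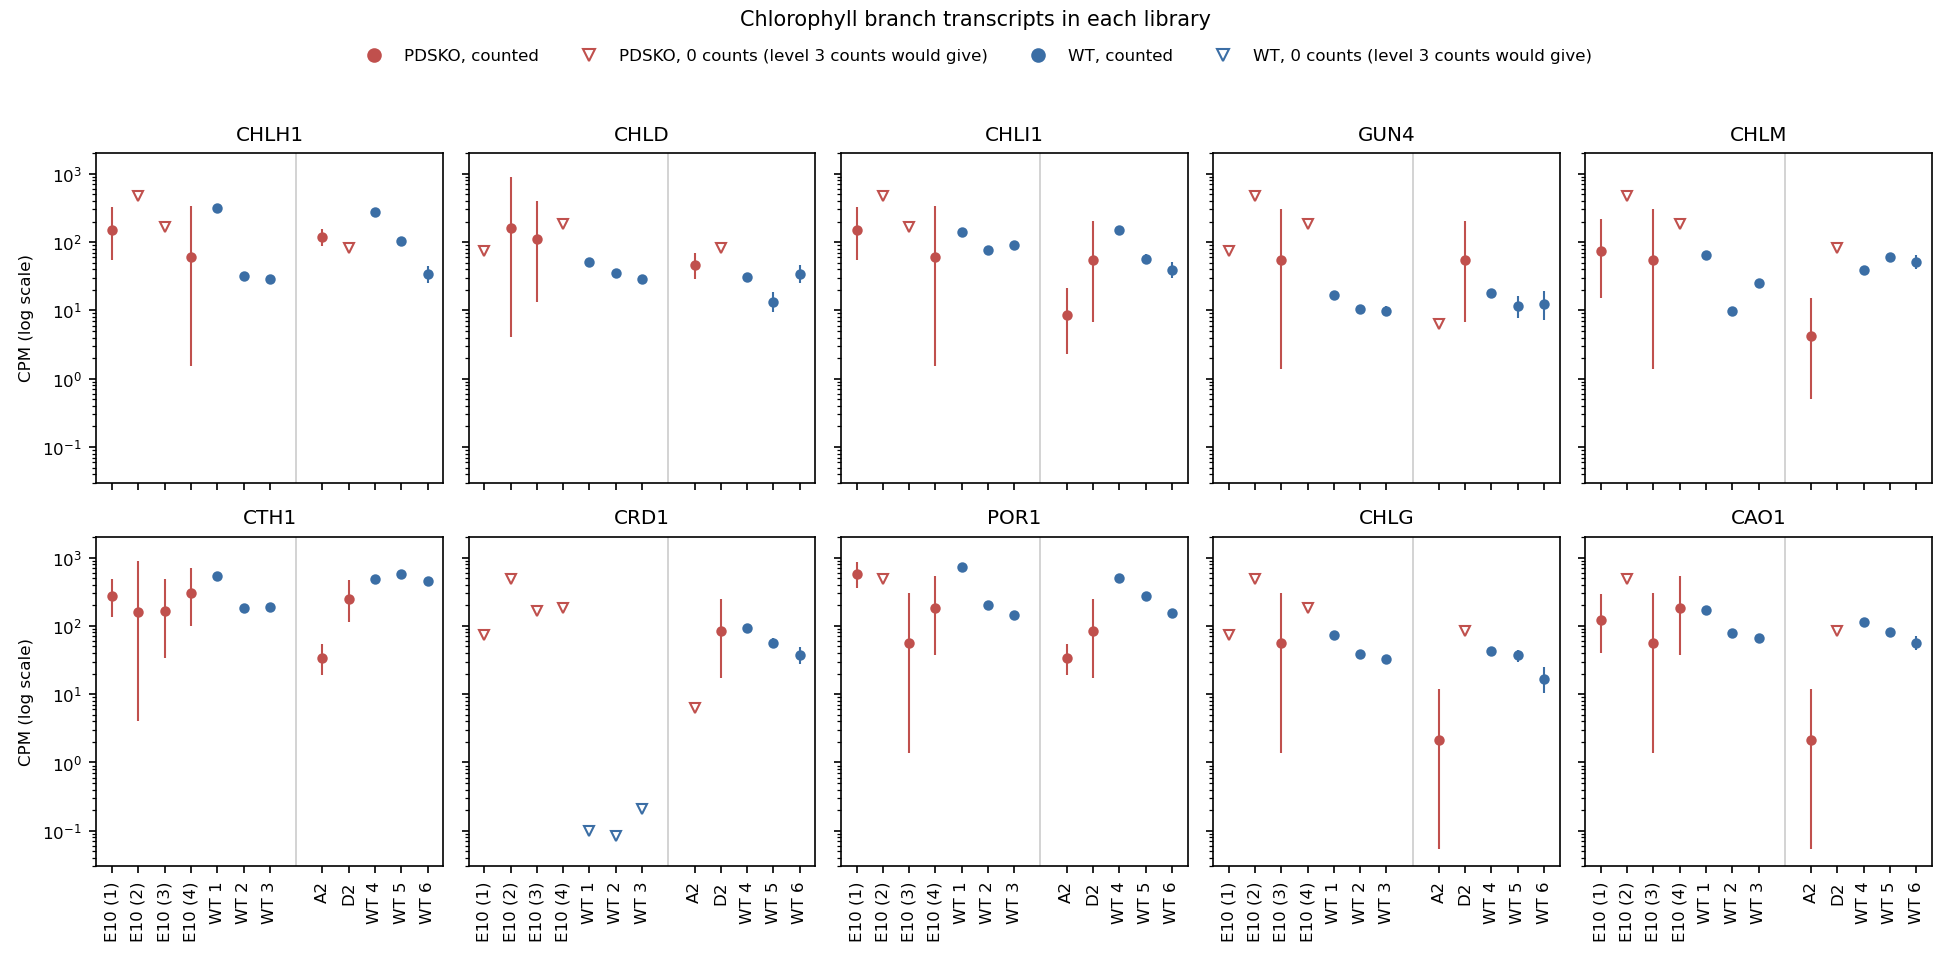
Each panel plots 1 gene's level in CPM on a log axis, by library, with first-set libraries left of the grey line and second-set libraries right of it; points are red for PDSKO and blue for WT, and bars are 95% Poisson counting intervals. Open triangles mark 0 counts and sit at the level that 3 counts would give. WT levels are precise and spread between libraries, most PDSKO points rest on few counts, and CRD1 is at 0 in all 7 first-set libraries.

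CRD1 was counted only in the second set. It had 0 counts in WT 1, WT 2 and WT 3, where 3 counts would have given 0.0834 to 0.211 CPM. The 4 E10 libraries were at 0 as well, but 3 counts would be 74.2 to 478 CPM there, so their zeros say little about its level. A2 had 0 counts and D2 had 3, against 1092, 153 and 52 counts in WT 4, WT 5 and WT 6, which are 92.8, 57.01 and 37.3 CPM. The same split ran through the table by the number of transcripts per gene in RefSeq's v5.5 annotation, in which CRD1 has 2 transcripts and the other 9 genes have 1. Of 841 identifiers with 2 or more RefSeq transcripts that reached 1 CPM in each of WT 4 to 6, 511 (60.8%) were at 0 in all of WT 1 to 3. Of 8895 identifiers with 1 transcript, 19 (0.214%) were. At 20 CPM, which CRD1 also reached in each of WT 4 to 6, the counts at 0 were 104 of 221 (47.1%) and 2 of 2572 (0.0778%). Identifiers with 2 or more transcripts took 7.04 to 11.2% of the counts in second-set libraries and 0.0159 to 0.109% in first-set ones. Per the labels' protocols, reads that mapped to several places in the transcriptome were discarded in making these counts, and whether this was done alike for both sets was not tested. CRD1 is therefore read only within the second set, and no fold change between the sets is given for it.

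**Figure D2:**
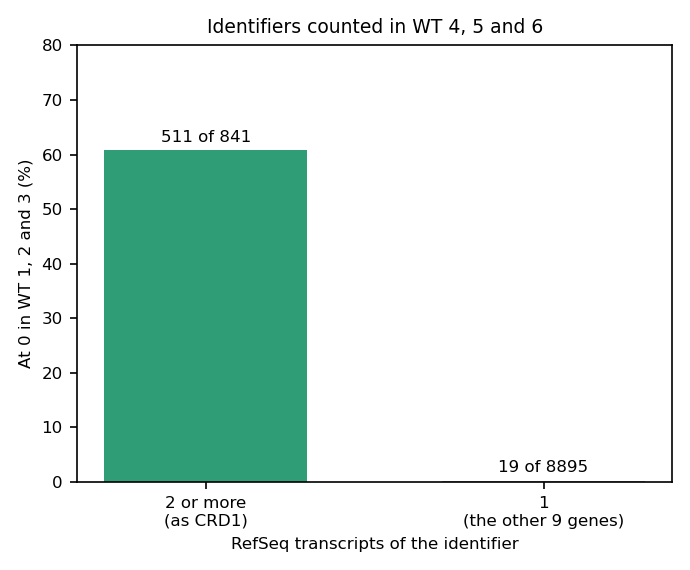
Bars give the share (%) of identifiers at 0 in all of WT 1 to 3 among those that reached 1 CPM in each of WT 4 to 6, by the number of RefSeq transcripts. The bar for 2 or more transcripts, to which CRD1 belongs, stands at 60.8% and that for 1 transcript at 0.214%.

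The parental libraries alone are deep enough to show the levels of the branch genes in 4-week dark cultures. CEL-Seq reads come from transcript 3′ ends, so levels were not divided by length, and genes can still differ in how many of their reads map. Mean levels over the 6 WT libraries ran from 405 ± 177 CPM for CTH1 and 334 ± 234 CPM for POR1 down to 13.1 ± 3.32 CPM for GUN4 (SD, n = 6 each). CTH1 lay at the 98.2 percentile of all identifiers by mean WT level, POR1 at the 97.9 percentile and GUN4 at the 67.5 percentile. Between them came CHLH1 with 131 ± 130 CPM, CAO1 with 94.7 ± 42.4 CPM, CHLI1 with 91.6 ± 44.3 CPM, CHLM with 41.7 ± 21.1 CPM, CHLG with 40.2 ± 18.8 CPM and CHLD with 32.2 ± 12.1 CPM (SD, n = 6 each). The ranges of every pair of neighbours in this order overlapped across libraries. Within libraries, POR1 was above CHLH1 and CHLD above GUN4 in 6 of 6, and CHLG was above CHLD in 5 of 6. The other neighbours kept their order in 2 to 4 of 6 libraries. The light-dependent reductase POR1 was thus among the most abundant transcripts of cultures that had seen no light for 4 weeks.

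WT libraries differed most in CHLH1 and least in GUN4. CHLH1 had 279, 103 and 33.7 CPM in WT 4 to 6 and 310.1, 32.0 and 29.0 CPM in WT 1 to 3. Its highest and lowest WT libraries differed by 3.42 on the log2 scale, which is 10.7-fold. GUN4 had 17.8, 11.6 and 12.2 CPM in WT 4 to 6 and 16.6, 10.4 and 9.93 CPM in WT 1 to 3, a range of 0.85 on the log2 scale. The chelatase's porphyrin-binding subunit and its activator, which act together, therefore had the widest and the narrowest range of the 9 genes measured in both sets. The other chelatase subunits were closer to GUN4, with ranges of 1.92 for CHLD and 1.90 for CHLI1 on the log2 scale. The sum of the 21 antenna genes ranged by 5.12 on the same scale, more than any of the 9 genes.

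Several genes were highest in WT 1, the library with the highest antenna sum. POR1 had 497, 272 and 156 CPM in WT 4 to 6 and 732, 203 and 145 CPM in WT 1 to 3. CAO1 had 115, 81.2 and 56.0 CPM in WT 4 to 6 and 171, 78.9 and 66.0 CPM in WT 1 to 3. CHLG had 42.3, 36.9 and 16.5 CPM in WT 4 to 6 and 74.0, 38.5 and 33.1 CPM in WT 1 to 3. All 3 genes were highest in WT 1 and second highest in WT 4, and so was CHLH1. By the root mean square difference of log2 CPM, each gene centred on its own mean over the 6 WT libraries, CHLG and CAO1 had the most similar pattern of the 36 pairs among the 9 genes, at 0.27. CAO1 with GUN4 (0.34) and POR1 with CAO1 (0.36) followed, and CHLD with CHLH1 stood last at 1.5. CHLD and CHLH1 are subunits of 1 enzyme, and both were highest in WT 1. The measure was not scaled for the size of a gene's swings, and the 2 genes ranged by 1.92 and 3.42 on the log2 scale. Their last place thus does not show opposite patterns.

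Cyclase and methyltransferase transcripts followed another order. CTH1 had 482, 583 and 454 CPM in WT 4 to 6, all high, while WT 1 had 544 CPM and WT 2 and WT 3 had 182 and 186 CPM. CHLM had 39.5, 59.6 and 51.7 CPM in WT 4 to 6 and 64.2, 9.64 and 25.3 CPM in WT 1 to 3. Both genes were lowest in WT 2 and WT 3. As a share of the CTH1 and CRD1 counts together, CRD1 made up 16.1% in WT 4 (Wilson 95% interval 15.3 to 17.0), 8.90% in WT 5 (7.64 to 10.3) and 7.60% in WT 6 (5.84 to 9.83). The interval of WT 4 did not overlap the other 2, and CTH1 was the major form in all 3.

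Set against each other with edgeR's quasi-likelihood test and Benjamini-Hochberg adjustment over 13040 identifiers, WT 4 to 6 and WT 1 to 3 differed in 1 of the 10 genes. This was CRD1, higher in WT 4 to 6, in a comparison where 9.31% of identifiers were called higher and 1.82% lower. CRD1 belongs to the identifiers with 2 or more RefSeq transcripts described above, many but not all of which were at 0 in WT 1 to 3. Whether its zeros share a source with theirs was not tested. The other 9 genes had log2 differences between -0.30 (CHLG) and 1.05 (CTH1, SE 0.57, adjusted p = 0.285), and their values in both sets overlapped, while 14.5% of all identifiers were higher in each of WT 4 to 6 than in each of WT 1 to 3 and 22.2% lower. Without WT 1, 5 of the 10 were called higher in WT 4 to 6: CRD1, CHLH1 (log2 2.60, adjusted p = 0.00855), CHLM (2.07, 0.0106), CTH1 (1.99, 0.000710) and POR1 (1.28, 0.0315), all by edgeR. The calls thus depended on WT 1, and the background was also larger without it: 17.9% of 13462 identifiers were called higher, 6.48% lower and 24.4% in all (3288 identifiers), against 1451 identifiers with WT 1.

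In the same comparison the 11 other tetrapyrrole genes had 1 member higher and 1 lower. The list covers the early steps, haem turnover and phytol supply, and also CHLI2 and DVR1 of the chlorophyll branch. The gene higher in WT 4 to 6 was CHLI2, a second copy of the chelatase motor subunit, at log2 2.04 ± 0.49 (SE, edgeR adjusted p = 0.0232). The gene lower there was GSA1, which makes 5-aminolevulinate, the precursor of all tetrapyrroles, at log2 -2.65 ± 0.56 (SE, adjusted p = 0.0111). None of the 20 antenna genes tested was called, with a median log2 difference of 0.36 against -0.06 over all identifiers.

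In lines A2 and D2, CAO1 passed the test as lower than in WT 4 to 6, and CTH1 and POR1 were counted in both knockout libraries at levels under every WT library without passing it. CHLM and CHLG were lower in A2, also without passing it, and D2 was too shallow to measure them. The chelatase subunit CHLH1 lay within the WT range in A2 and CHLD above it, though the counting interval of CHLD reached into that range. The 9 genes without CRD1 summed to 248 CPM in A2 (95% counting interval 206 to 297) and 444 CPM in D2 (254 to 721), against 1651, 1218 and 854 CPM in WT 4 to 6. Both knockout sums lay under every WT sum, also with Cre07.g323800 out of the totals, when A2 had 438 CPM (362 to 524) and D2 464 CPM (265 to 754), against 1687, 1276 and 902 CPM in WT 4 to 6. The median log2 fold change of the 10 genes was -2.76, against -0.92 over all 8042 identifiers tested. By edgeR's quasi-likelihood test, 1 of the 10, CAO1, was called lower, in a comparison where 7.49% of identifiers were called lower, 3.38% higher and 10.9% in either direction. CHLM, CTH1, POR1, CHLG and CAO1 had smaller CPM values in both knockout libraries than in every WT library. That is 5 of 10, where 41.0% of all identifiers showed the same separation, so the count is near the background. For CHLM, CHLG and CAO1 the D2 value is 0 counts, and 3 counts there would be 83.2 CPM, above every WT 4 to 6 value of CHLM and CHLG and above those of WT 5 and WT 6 for CAO1. Their separation in D2 is thus set by depth, and CTH1 and POR1 are the 2 genes with counts behind it in both libraries. In D2 those counts are few. The counting intervals there, 114 to 474 CPM for CTH1 and 17.2 to 243 CPM for POR1, took in the WT 6 values of 454 and 156 CPM. None of the 10 was higher in both knockout libraries than in every WT library, where 7.57% of identifiers were.

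CAO1, the chlorophyll b enzyme, had the largest fitted difference of the 10 genes. It had 1 count in A2 (2.10 CPM) and 0 in D2, where 3 counts would have given 83.2 CPM, against 115, 81.2 and 56.0 CPM in WT 4 to 6. The level in A2 was 39.9-fold lower than the mean of WT 4 to 6, with a counting interval from 7.17 to 1577. The edgeR log2 fold change was -5.41 ± 1.39 (SE, adjusted p = 0.0265). The call ended when WT 4 (adjusted p = 0.0970), WT 5 (0.124), WT 6 (0.0752) or A2 (0.0546) was left out, and held without D2 (0.00231). With Cre07.g323800 taken out of the totals the level in A2 was 23.5-fold lower, interval 4.22 to 929. The depth of D2 could not show a difference of this gene by itself.

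CHLG, the synthase that acts beside CAO1, gave a like picture with fewer counts. It had 1 count in A2 (2.10 CPM) and 0 in D2, against 42.3, 36.9 and 16.5 CPM in WT 4 to 6. The level in A2 was 15.2-fold lower than the WT 4 to 6 mean (counting interval 2.72 to 599), or 8.93-fold (1.60 to 353) with Cre07.g323800 out of the totals, and D2 could not show a difference. The edgeR value of -4.0 ± 1.33 on the log2 scale (SE, adjusted p = 0.0564) did not pass. POR1 was better covered. It had 16 counts in A2 (33.7 CPM) and 3 in D2 (83.2 CPM), against 497, 272 and 156 CPM in WT 4 to 6. Both knockout libraries lay under the lowest WT library, but the D2 counting interval of 17.2 to 243 CPM took in that WT value. The POR1 level in A2 was 9.15-fold lower than the WT mean (5.63 to 16.0), or 5.37-fold (3.31 to 9.40) with Cre07.g323800 out of the totals. In D2 it was 3.70-fold lower (1.27 to 18.0). Its edgeR log2 fold change of -2.98 ± 1.00 (SE) had an adjusted p of 0.0586.

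The cyclase form CTH1 had 33.7 CPM in A2 (16 counts) and 249.6 CPM in D2 (9 counts), against 482, 583 and 454 CPM in WT 4 to 6. Both lay under every WT library, A2 by 15.0-fold against the WT mean (9.26 to 26.3) and D2 by 2.03-fold (1.07 to 4.44). With Cre07.g323800 out of the totals the A2 difference was 8.89-fold (5.48 to 15.6). The A2 and D2 counting intervals did not overlap, 19.2 to 54.7 CPM in A2 and 114 to 474 CPM in D2. The D2 interval took in the WT 6 value of 454 CPM. The edgeR value for CTH1 was -2.88 ± 0.96 on the log2 scale (SE, adjusted p = 0.0566). CRD1 was at 0 in A2, which is at least 9.88-fold lower than the WT 4 to 6 mean of 62.4 CPM (floor of 3 counts in A2), or at least 5.81-fold with Cre07.g323800 out of the totals. In D2 its 3 counts gave 83.2 CPM, with a counting interval of 17.2 to 243 that takes in all 3 WT values. CRD1 made up 3 of 12 CTH1 and CRD1 counts in D2 (25.0%, Wilson 8.89 to 53.2) and 0 of 16 in A2, which allows a share of up to 18.8%, against 7.60 to 16.1% in WT 4 to 6. No difference in the balance of the cyclase forms was detectable at this depth.

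CHLM, the methyltransferase between chelatase and cyclase, had 2 counts in A2 (4.21 CPM) and 0 in D2, against 39.5, 59.6 and 51.7 CPM in WT 4 to 6. The level in A2 was 11.9-fold lower than the WT mean (counting interval 3.31 to 98.6), or 7.07-fold (1.96 to 58.4) with Cre07.g323800 out of the totals, and D2 could not show a difference. For CHLM edgeR gave -3.77 ± 1.21 on the log2 scale (SE, adjusted p = 0.0513). CHLI1, the chelatase ATPase, had 8.42 CPM in A2 (4 counts) and 55.5 CPM in D2 (2 counts), against 148, 56.3 and 39.5 CPM in WT 4 to 6. A2 lay under all 3 WT libraries and D2 within them, and edgeR gave -2.47 ± 1.10 on the log2 scale (SE, adjusted p = 0.126). CHLM was called in the same edgeR test once Cre07.g323800 was left out (adjusted p = 0.0476), beside CAO1, where 7.65% of 8088 identifiers were called lower, 4.46% higher and 12.1% in all.

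CHLD and CHLH1 differed from the rest in A2. CHLD had 22 counts in A2, 46.3 CPM with a counting interval of 29.0 to 70.1, against 30.3, 13.4 and 34.5 CPM in WT 4 to 6. It was the 1 gene of the 10 whose level in A2 was above every WT 4 to 6 library, but its counting interval took in the WT 4 and WT 6 values. With Cre07.g323800 out of the totals CHLD had 81.6 CPM in A2, against 31.0, 14.1 and 36.4 CPM. The ratio of the WT mean to A2 was then 0.333 (counting interval 0.220 to 0.531), against 0.563 (0.372 to 0.898) with it. CHLH1 had 56 counts in A2, 118 CPM (89.0 to 153), against 279, 103 and 33.7 CPM, which is within the WT range. With Cre07.g323800 out of the totals CHLH1 had 208 CPM in A2, against 286, 108 and 35.6 CPM, also within it. The ratio of the WT mean to A2 was then 0.689 (0.530 to 0.912), against 1.18 (0.907 to 1.56) with it. D2 had 0 counts of both, and 3 counts would have given 83.2 CPM there, so D2 says nothing about CHLD. For CHLH1 that floor is 1.67-fold under the WT mean, but WT 6 lies under the floor at 33.7 CPM. The CHLH1 zero in D2 thus does not show a level under every WT library. The edgeR log2 fold changes were 0.36 ± 0.89 for CHLD (SE, adjusted p = 0.807) and -0.79 ± 1.08 for CHLH1 (adjusted p = 0.636). Both values rested on A2, since D2 has 0 counts of either gene and a fit without A2 can only be negative.

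GUN4 was too scarce to read. It had 0 counts in A2, at least 2.20-fold lower than the WT 4 to 6 mean of 13.9 CPM against the floor of 3 counts, or 1.29-fold once Cre07.g323800 was taken out of the totals. D2 had 2 counts (55.5 CPM, interval 6.72 to 200.3), against 17.8, 11.6 and 12.2 CPM in WT 4 to 6. Its edgeR log2 fold change was -1.36 ± 1.41 (SE, adjusted p = 0.513).

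**Figure D3:**
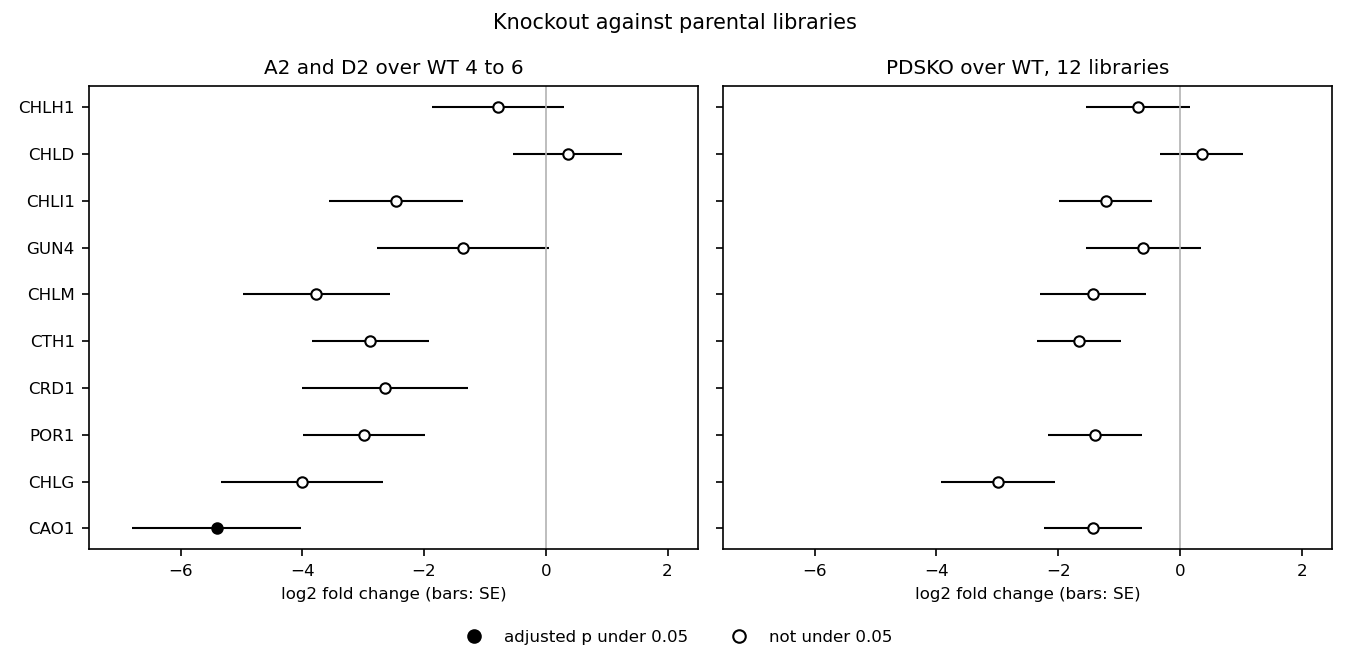
Points are edgeR log2 fold changes of each gene with SE bars, for A2 and D2 over WT 4 to 6 (left) and for PDSKO over WT in 12 libraries (right); filled points have an adjusted p under 0.05. CAO1 at -5.41 in the left panel is the filled point, CHLD is positive in both panels, and CRD1 has no point on the right because it was not tested there.

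The make-up of the branch within a library does not depend on the library total, and it differed in A2. CHLH1 gave 47.5% of the 118 counts of the 9 genes in A2 (Wilson interval 38.7 to 56.4), against 16.9, 8.48 and 3.95% in WT 4 to 6. CHLD gave 18.6% in A2 (12.6 to 26.6), against 1.84, 1.10 and 4.04% in WT 4 to 6. CTH1 gave 13.6% in A2 (8.52 to 20.9), against 29.2, 47.9 and 53.2%, and CAO1 0.847% (0.150 to 4.64), against 6.96, 6.67 and 6.56%. In A2, CHLH1 and CHLD thus took most of the branch counts, where CTH1 and POR1 led in WT. In D2, CTH1 gave 9 of the 16 counts (56.2%, 33.2 to 76.9), and CHLH1 and CHLD gave none. With 1 library of each line, these shares describe the libraries and were not tested.

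**Figure D4:**
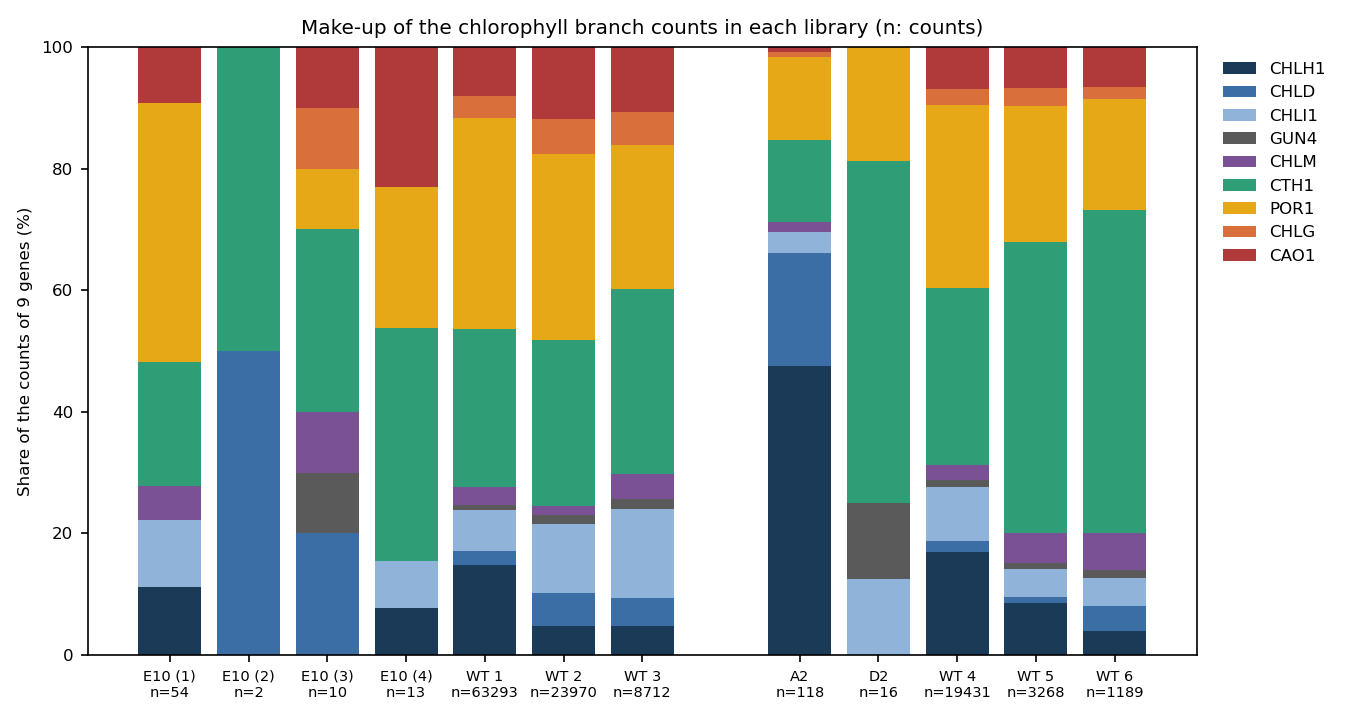
Stacked bars give each gene's share (%) of the counts of the 9 genes other than CRD1, by library, with the number of counts under each bar. The A2 bar is mostly CHLH1 (47.5%) and CHLD (18.6%), while CTH1 and POR1 lead in the WT bars; E10 libraries 2 to 4 and D2 rest on 2 to 16 counts.

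Other genes of the pathway and the antenna genes differed in how many were called in A2 and D2. None of the 11 other tetrapyrrole genes was called by edgeR in either direction, where 7.49% of all identifiers were called lower and 3.38% higher. At an unadjusted p under 0.05 there were 0 of 11, against 2749 of 8042 identifiers. The median log2 fold change of these 11 genes was -1.19, near the -0.92 over all identifiers. Since CHLI2 and DVR1 are among them, this list does not stand for steps outside the chlorophyll branch alone. Among these genes the smallest p-values were those of GSA1 (-2.42, adjusted p = 0.271), CHLP1, which supplies the phytyl tail (-1.75, 0.286), and CHLI2 (-1.39, 0.288). Of 20 antenna genes tested, 16 were called lower and 0 higher, with a median of -3.75, led by LHCBM3 (-5.64, adjusted p = 0.000750), LHCBM1 (-5.39, 0.00104) and LHCBM7 (-5.90, 0.0011). Some of the LHCBM genes are near-identical copies. Reads that mapped to several places were dropped per the protocols, so the levels of such copies are uncertain. Antenna genes summed to 2176 CPM in A2 and 17165 CPM in D2, against 92188, 83335 and 78018 CPM in WT 4 to 6.

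Leaving out D2 changed the picture of the branch. With A2 alone, and its variance taken from the WT libraries, 8 of the 10 genes were called lower by edgeR, all but CHLD and CHLH1. The values were -3.96 for CTH1 (adjusted p = 0.00109), -3.16 for POR1 (0.00635), -3.63 for CHLM (0.0154), -3.23 for CHLI1 (0.0217), -3.92 for CHLG (0.0268) and -5.31 for CAO1 (0.00231). CRD1 and GUN4, which are at 0 in A2, were also called, and their fold bounds are those given above. The background was larger as well: 15.0% of 10989 identifiers were called lower, 7.60% higher and 22.6% in all (2486 identifiers). Without WT 4, WT 5 or WT 6, 13, 71 and 127 identifiers were called, against 874 with all 5 libraries. DESeq2 on the same 5 libraries called 4 of the 10 lower, CHLM, CTH1, POR1 and CAO1, where it called 7.81% of 8042 identifiers lower, 6.47% higher and 14.3% in all.

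In line E10 no gene of the branch was called against WT 1 to 3. Of the 10 genes CTH1 alone passed the filter on low counts, and edgeR put its log2 fold change at -0.31 ± 0.69 (SE), with an adjusted p of 0.994. None of the 449 identifiers tested was called (0%), 6 had an unadjusted p under 0.05, and DESeq2 called 1. The CTH1 level was 272, 159, 166 and 306 CPM in E10 libraries 1 to 4, on 11, 1, 3 and 5 counts, against 544, 182 and 186 CPM in WT 1 to 3. The E10 values lay within the WT range or just under it. Without the filter the CTH1 value was -1.63 (adjusted p = 0.414), where the median over all 14639 identifiers was -2.42. Leaving out 1 E10 library let 10459 to 10545 identifiers pass the filter, and the CTH1 value moved to -1.76 without library 1, -1.33 without library 2, -1.40 without library 3 and -1.62 without library 4. Its edgeR adjusted p-values were 0.403 to 0.539 there, and the medians over all identifiers were -2.53 to -1.39. No gene of the branch was called in these 4 fits, and without WT 1 none passed the filter.

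Summed over the 4 libraries, E10 had 79 counts of the 9 genes in 81142, of which 54 came from library 1. The ratio of the WT 1 to 3 mean to the summed E10 level was 1.08 for POR1 (counting interval 0.744 to 1.64), 1.23 for CTH1 (0.799 to 2.02), 0.95 for CAO1 (0.500 to 2.08) and 1.18 for CHLI1 (0.574 to 2.94). It was 1.43 for CHLH1 (0.696 to 3.57), 0.671 for CHLM (0.262 to 2.46) and 1.04 for CHLD (0.356 to 5.04). It was 3.94 for CHLG (0.707 to 156), on 1 count, and 1.00 for GUN4 (0.180 to 39.5), on 1 count. With all 7 libraries every interval took in 1, so no difference was detectable at this depth. POR1 was uneven within E10, with 569, 0, 55.2 and 184 CPM in libraries 1 to 4 on 23, 0, 1 and 3 counts, and library 1 was also the one high in antenna genes.

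The E10 ratios for POR1 and CHLH1 depended on the libraries that stood apart. Without E10 library 1, POR1 had 4 counts in 40713 (98.2 CPM), and the ratio of the WT 1 to 3 mean to it was 3.67 (counting interval 1.43 to 13.5). Without WT 1 instead, the ratio for POR1 was 0.524 (0.360 to 0.795) and that for CHLH1 0.353 (0.172 to 0.879), both under 1 in an interval that covers counting error only. Without both libraries the ratio was 1.78 for POR1 (0.693 to 6.51) and 1.24 for CHLH1 (0.223 to 49.03), and the interval took in 1 for each of the 9 genes. The direction of POR1 in E10 thus turned with the choice of libraries. CTH1 had ratios of 1.38 (0.725 to 3.01) without E10 library 1, 0.746 (0.483 to 1.22) without WT 1 and 0.832 (0.438 to 1.82) without both. As shares of the 79 counts, POR1 gave 34.2% and CTH1 25.3%, within or next to their WT 1 to 3 ranges of 23.7 to 34.8% and 25.9 to 30.3%. Without E10 library 1 they gave 16.0% (Wilson 6.4 to 34.7) and 36.0% (20.2 to 55.5) of 25 counts, and these intervals took in the WT 2 and WT 3 values.

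Across all 12 libraries, no gene of the branch was called between PDSKO and WT. None of 4915 identifiers passed edgeR's test (0%), 1006 had an unadjusted p under 0.05, and DESeq2 called 358. CRD1 did not pass the filter. Among the 9 genes tested, 8 log2 fold changes were negative and the median was -1.39, against -0.38 over all identifiers. CHLG had -2.99 ± 0.94 (SE, adjusted p = 0.0921) and CTH1 -1.66 ± 0.69 (0.171), and these 2 had an unadjusted p under 0.05. CHLG averaged 9.56 ± 22.4 CPM in PDSKO and 40.2 ± 18.8 CPM in WT (SD, n = 6 each), and 4 of the 6 PDSKO libraries were at 0. In those 4, 3 counts would be 74.2 to 478 CPM, above the highest WT value of 74.0 CPM, so their zeros do not show a lower level. CTH1 averaged 198 ± 99.4 CPM in PDSKO and 405 ± 177 CPM in WT (SD, n = 6 each), with overlapping ranges. CHLM (-1.43), CAO1 (-1.42), POR1 (-1.39), CHLI1 (-1.22), CHLH1 (-0.69), GUN4 (-0.60) and CHLD (0.36) had adjusted p-values between 0.309 and 0.799.

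E10 library 1 decided part of this result. Without it, edgeR called POR1 (-3.05 ± 0.80, SE, adjusted p = 0.0400) and CHLG (-3.29 ± 0.97, SE, 0.0460) lower in PDSKO, among 632 of 6777 identifiers called (9.33%), with 8.32% lower and 1.00% higher. In the fit of all 12 libraries, none of the 4915 identifiers was called. That 0 of 10 other tetrapyrrole genes and 0 of 19 antenna genes were called there thus says nothing about these lists. All 19 antenna values were negative, with a median of -1.74, and 8 of the 10 other tetrapyrrole values were, with a median of -0.63. The median over all identifiers was -0.38. Among the tetrapyrrole genes GSA1 had the smallest p, with 3.87 ± 1.31 (SE, adjusted p = 0.111), and 69 of its counts came from E10 library 2 of 6279 counts.

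Whether the knockout difference was the same in both title sets was tested by an interaction term. None of the 9 genes that could be fitted was called, in a test that called 1 of 9044 identifiers (0.0111%). CAO1 had the largest value, -4.13 ± 1.69 on the log2 scale (SE, edgeR adjusted p = 0.247, unadjusted p = 0.0230), meaning lower in A2 and D2 relative to their WT libraries than in E10 relative to its own. A difference between E10 and the other lines in these genes is therefore not shown. Over all identifiers 1446 had an unadjusted p under 0.05, and DESeq2 called 665.

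The sum of the branch and the sum of the antenna genes can be set side by side in each library. For each count of the 9 branch genes there were 61.1, 6.50, 8.10 and 8.15 antenna counts in E10 libraries 1 to 4, against 64.5, 6.42 and 6.38 in WT 1 to 3. In A2 there were 8.76 and in D2 38.7, against 55.8, 68.4 and 91.4 in WT 4 to 6. The knockout ratios rest on 54, 2, 10 and 13 branch counts in E10 libraries 1 to 4, 118 in A2 and 16 in D2. On so few counts a close match of E10 libraries 2 to 4 with WT 2 and WT 3 is not shown. WT 2 and WT 3 had branch sums of 666 and 613 CPM, and WT 6, with 78018 CPM of antenna genes, had 854 CPM. The branch sums of the WT libraries thus spanned 613 to 2104 CPM while their antenna sums spanned 3910 to 135650 CPM. The points share their library totals, and no correlation is given because the libraries fall into separate clusters.

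**Figure D5:**
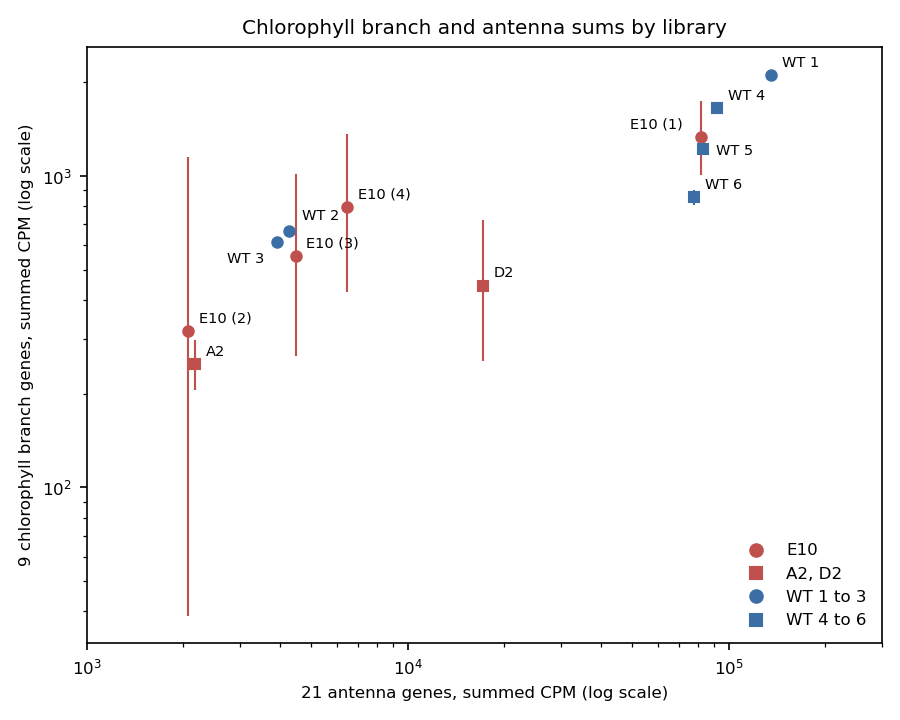
Each point is a library, with the summed CPM of 21 antenna genes on the x axis and of the 9 branch genes without CRD1 on the y axis, both log scales; circles are first-set and squares second-set libraries, red PDSKO and blue WT, and bars are 95% counting intervals of the branch sum. WT 2, WT 3, A2 and E10 libraries 2 to 4 lie at low antenna sums, and the branch sum spans a smaller range than the antenna sum.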

How the data were processed

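CEL-Seq libraries, which are barcoded and read at transcript 3′ ends, were made from 12 samples. Per the labels' protocols, BWA MEM mapped read 2 to transcriptome 281_v5.6, reads with several places were dropped, and MapAndGo did the counting. The submitters' processing notes list edgeR as well, and no versions were found. The deposited values are raw counts for 17744 identifiers. Whether the authors collapsed molecular identifiers is not stated, so intervals cover counting error only.

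Columns were matched to samples by title. CPM are counts per 1000000 of the library total. Intervals are 95% Poisson for CPM and Wilson for shares, and the floor is 3 counts. edgeR 4.0.16 in R 4.3.3 (filterByExpr, TMM, quasi-likelihood test, two-sided, Benjamini-Hochberg at 0.05) tested all identifiers passing the filter. The SE of a log2 fold change is its size over the square root of F. The alternatives were DESeq2 1.42.0, RLE factors or none, no filter, a block by replicate number, a title-set term, E10 summed and each library left out. Leaving out identifiers with 2 or more RefSeq transcripts, E10 sums without E10 library 1 or WT 1, and branch sums without Cre07.g323800 were chosen after seeing the data. RefSeq v5.5 differs from the authors' assembly and served only for transcripts per identifier, with 17742 matched. All 10 genes are named in each comparison, and of other lists the 3 with the smallest p or fewer. PDS1, FDX5, CYC6, HYDA1, HYDA2 and CRR1 were named after their values were seen. The genes and lists were chosen with earlier results of these data known. No 2 libraries agreed within sampling noise (lowest chi-square per degree of freedom 3.95). The fitting script was tested on simulated data. No sequences are shown.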

Additional observations from a re-analysis of the deposited data

Results flagged for a closer look

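The highest or lowest library was set against the others of its group, where a group had 4 to 10 libraries, by its gap to the nearest library over the group's range (Dixon's 95% value). Of 29 groups 5 passed, and chance flags about 1 in 20. CRD1 in D2 (83.2 CPM, 3 counts) was the only PDSKO library with a CRD1 count. POR1 in E10 library 1 was far above the other PDSKO libraries, at 569 CPM on 23 counts against 184 CPM or less, and antenna genes in that library summed to 81674 CPM. Whether the state of that culture plays a part was not tested. CHLG in E10 library 3 (55.2 CPM) stood apart among all PDSKO libraries and among the E10 libraries, and GUN4 in the same library (55.2 CPM) among the E10 libraries. Both values are 1 count.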

How the results depend on the processing

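Fold changes kept their sign and their side of 0.05 in most fits: in 86 of 109 alternative values for A2 and D2, 172 of 182 for PDSKO over WT, 10 of 10 for E10, 101 of 119 between the WT sets and 145 of 162 for the interaction. Between PDSKO and WT, edgeR called 0 identifiers, against 164 with RLE factors, 4 with library totals alone, 1257 with no filter, 358 by DESeq2 and 1 with E10 summed. No filter called 2 of the 10 branch genes lower (CTH1 and CHLG), where 1015 of 15996 identifiers were called lower and 242 higher. It turned CHLD to -0.82, and DESeq2 turned GUN4 to 0.24. Between A2 with D2 and WT 4 to 6, 512 identifiers were called with library totals alone and 1470 with no filter. There 5 of 10 branch genes were called lower with no filter, where 869 of 15210 identifiers were called lower and 601 higher. DESeq2 called 4 of 10 lower, where it called 628 of 8042 identifiers lower and 520 higher. Without Cre07.g323800, 2 of 10 were called lower, among 619 of 8088 identifiers lower and 361 higher. Without identifiers of 2 or more transcripts, 2 of 9 were called lower, among 580 of 7341 identifiers lower and 330 higher. DESeq2 called 1 identifier in E10. Between the WT sets DESeq2 called 2236 identifiers. Leaving out identifiers of 2 or more transcripts, CRD1 among them, called 271 of 12222 identifiers and 0 of 9 branch genes there, with POR1 at 0.0026. The interaction called 0 identifiers with RLE factors, 42 with no filter, 665 by DESeq2 and 0 without identifiers of 2 or more transcripts. Its GUN4 value was -0.099 with RLE factors, -0.95 with library totals alone, -0.051 without Cre07.g323800 and -0.028 without identifiers of 2 or more transcripts, and CHLH1 was -0.11 with library totals alone. Of the CPM values of the 10 genes by library, 50 left their counting interval on TMM effective library sizes and 70 stayed in it. Beyond the smaller tables tested, the cause of these shifts was not tested.

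With each library left out in turn, PDSKO over WT gave 0 to 632 identifiers and 0 to 2 branch genes, CHLD between -1.25 and 0.54 and GUN4 between -2.68 and 0.0041. A2 and D2 over WT 4 to 6 gave 13 to 2486 identifiers and 0 to 8 branch genes, CHLD between -9.86 and 0.88, CHLH1 between -12.2 and 0.51 and GUN4 between -8.97 and 0.98. Values beyond about -8 come from a lone library at 0 and are no bound. E10 over WT 1 to 3 gave 0 to 1 identifiers. WT 4 to 6 over WT 1 to 3 gave 1119 to 3288 identifiers and 1 to 5 branch genes. There CHLD lay between -0.59 and 0.20, CHLH1 between -0.61 and 2.60, CHLI1 between -0.72 and 0.43, POR1 between -0.48 and 1.28, CHLG between -0.62 and 0.34 and CAO1 between -0.40 and 0.71. The interaction gave 0 to 243 identifiers, with CHLD between -9.98 and 2.67, CHLH1 between -11.5 and 3.22, CHLI1 between -1.65 and 1.19, POR1 between -2.54 and 0.64, CHLG between -8.25 and 7.72 and GUN4 between -9.06 and 8.52.

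The library number shared by WT and PDSKO was fitted as a replicate block. It called 69 identifiers and 0 branch genes and put CHLD at -0.13. Of the 6 same-numbered pairs 5 had correlated deviations over 0.1 (lowest -0.087, highest 0.41) and 3 libraries correlated best with their own number. The fourth pair did not correlate and the labels tie the numbers to no shared culture or day, so the numbers were not taken to pair the samples. A factor shared by some pairs was not tested.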
